A study of Mus musculus with 12 samples.

Results

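Ischemia-reperfusion (IR) in hearts that overexpress Slit2 is described here from 6 of the 12 heart RNA-seq libraries of the series: 3 Slit2-IR libraries were compared with 3 Slit2-non-IR libraries, chosen by their titles and read across all genes. Slit2-Tg mice carry the full-length human Slit2 cDNA under the CMV promoter, which is active in many cell types and not restricted to heart muscle. The transgenics were made in C57 × CBA F1 oocytes and kept as heterozygotes on C57BL/6J, the strain that the labels give for all 12 libraries. All donors were male and 3 to 5 months old. Every heart was excised and perfused on a Langendorff apparatus with Krebs-Henseleit buffer, so no circulating blood reached it. Slit2-IR hearts were perfused stably for 20 min, kept without flow for 20 min, and reperfused for 40 min. Slit2-non-IR hearts were perfused without a break for 80 min. The other 6 libraries, from C57BL/6J hearts given the same 2 protocols (3 C57-IR and 3 C57-non-IR), served for the estimate of spread and for comparison. The labels call the 3 samples of each group independent.

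Slit2 is a secreted ligand of the Robo receptors, known first for axon guidance. When flow returns to an ischemic heart, oxidative stress, calcium overload and misfolded protein are known to switch on a pair of fast programs. In the heat shock response the factor HSF1 binds heat shock elements and drives chaperone genes. In the immediate-early response, transcription factors such as the AP-1, EGR and NR4A families are made within minutes, and NF-kB drives cytokines and adhesion molecules soon after. The question put to these libraries was which genes had moved after 40 min of reperfusion in Slit2-Tg hearts.

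The deposited values are FPKM, fragment counts scaled to gene length and sequencing depth. The Slit2 libraries held 20206063 to 24841291 reads on genes, of which 19.7% to 23.8% came from the mitochondrial genome. A first principal component with 39.3% of the variance separated the Slit2-IR from the Slit2-non-IR libraries. The second, with 26.1%, separated both libraries numbered 1 from the other 4. The mouse Slit2 gene stood at 0.182, 0.184 and 0.169 FPKM in the Slit2-non-IR hearts and 0.153, 0.813 and 0.0847 FPKM in the Slit2-IR hearts, against 0.195 ± 0.0233 FPKM in C57-non-IR and 0.243 ± 0.0348 FPKM in C57-IR hearts. It was therefore not higher in all Slit2-Tg libraries. This gene model is that of the mouse gene, and whether reads of the human transgene map to it was not tested. The Slit2-IR library at 0.813 FPKM held 498 reads, against 48 in the lowest Slit2-IR library and 96 to 109 in the Slit2-non-IR libraries. The genotype labels were thus not checked by this gene. The paper reports genotyping by Southern blot and PCR, and higher Slit2 mRNA and protein in Slit2-Tg hearts than in background-strain hearts. A difference is given below as a log2 fold change of FPKM + 1 with its standard error, a scale that understates the change of genes near 0. Its p comes from limma's moderated test, adjusted by the Benjamini-Hochberg method over the 15240 genes tested.

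IR raised 68 genes and lowered 12 in Slit2-Tg hearts at an adjusted p under 0.05, that is 0.446% and 0.0787% of the 15240 genes tested. For all 80, the 3 Slit2-IR values lay entirely above or entirely below the 3 Slit2-non-IR values. Among all tested genes, 1318 (8.65%) had every Slit2-IR value above every Slit2-non-IR value and 1265 (8.3%) the opposite order. Without adjustment, p was under 0.05 for 937 higher genes (6.15%) and 772 lower genes (5.07%). The inducible chaperones Hspa1b and Hspa1a, the orphan nuclear receptor Nr4a3 and the co-chaperone Dnajb1 led the rises, and the falls included 6 zinc finger genes. Same-numbered Slit2 libraries varied together, though the labels name no pairing. When the fit of all 12 libraries took the number as a replicate block, the counts rose to 163 genes higher (1.07%) and 39 lower (0.256%), with 79 of the 80 genes still called. The same block in the 6 Slit2 libraries alone gave 43 higher and 2 lower, with 23 of the 80 still called, against 55 and 5 without it. With upper-quartile scaling the split was 69 higher and 25 lower, 73.4% higher in place of 85.0%, and this scaling moved the median of all genes to -0.04 from 0.01 on the log2 scale.

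Single libraries weighed heavily on these counts. Leaving out Slit2-IR replicate 1 gave 5 called genes, Slit2-IR replicate 2 gave 4, and Slit2-non-IR replicates 1, 2 and 3 gave 9, 12 and 7, every one of them higher. Of the 80 genes, 5, 4, 8, 11 and 7 were still called in these fits, in the same order. Leaving out Slit2-IR replicate 3 gave 79 higher and 12 lower, but only 56 of the 80 genes were still called, so other genes made up the rest. Hspa1b, Hspa1a, Nr4a3 and Dnajb1 were called whichever of the 6 libraries was left out. All 80 genes kept their direction in each of these 6 fits. Slit2-IR replicate 3 had the lowest of the 3 Slit2-IR values in 49 of the 68 higher genes, and Slit2-non-IR replicate 1 had the lowest of the 3 Slit2-non-IR values in 49.

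The 5 promoters below belong to the genes of the heat shock and immediate-early lists that rose most among those matched in the promoter table (Myc was not matched), and are shown because these are the programs that lead the response. Each line holds the 250 bases before a start of the gene in the RefSeq promoter table (GRCm38.p6), on its own strand, with motif matches in capitals. These starts can differ from the gene coordinates given below. The Nr4a3 window reaches past the gene start at chr4:48045153, so part of it lies within the gene as annotated in the deposited data. The motifs searched on both strands were the heat shock element GAANNTTC, the cAMP response element TGACGTCA and its half-site TGACG, which lies within the full element, the AP-1 site TGANTCA, the EGR site GCGTGGGCG, the SRF CArG box and the NF-kB site. The half-site was added after the windows had been seen.
Hspa1b (chr17:34959239-34959488, minus strand): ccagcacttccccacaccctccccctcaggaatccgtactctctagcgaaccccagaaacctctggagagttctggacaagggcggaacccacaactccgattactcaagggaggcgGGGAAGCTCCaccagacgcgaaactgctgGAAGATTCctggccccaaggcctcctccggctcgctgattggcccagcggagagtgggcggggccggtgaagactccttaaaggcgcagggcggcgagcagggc
Hspa1a (chr17:34972157-34972406, minus strand): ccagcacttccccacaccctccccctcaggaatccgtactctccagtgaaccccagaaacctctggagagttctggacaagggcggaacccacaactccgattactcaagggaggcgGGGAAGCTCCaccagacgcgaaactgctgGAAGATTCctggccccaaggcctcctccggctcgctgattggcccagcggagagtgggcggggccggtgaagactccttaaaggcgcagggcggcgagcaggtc
Nr4a3 (chr4:48045055-48045304, plus strand): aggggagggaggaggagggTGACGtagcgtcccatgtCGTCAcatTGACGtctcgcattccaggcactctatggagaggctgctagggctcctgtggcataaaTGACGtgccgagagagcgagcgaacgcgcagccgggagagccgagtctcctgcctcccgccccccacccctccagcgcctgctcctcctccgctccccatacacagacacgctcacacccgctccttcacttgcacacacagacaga
Dnajb1 (chr8:83607925-83608174, plus strand): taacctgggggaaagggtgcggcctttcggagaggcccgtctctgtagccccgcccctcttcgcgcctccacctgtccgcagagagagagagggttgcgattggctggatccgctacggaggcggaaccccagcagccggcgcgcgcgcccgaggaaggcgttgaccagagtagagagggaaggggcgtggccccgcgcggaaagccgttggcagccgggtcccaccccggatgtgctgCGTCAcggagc
Maff (chr15:79347270-79347519, plus strand): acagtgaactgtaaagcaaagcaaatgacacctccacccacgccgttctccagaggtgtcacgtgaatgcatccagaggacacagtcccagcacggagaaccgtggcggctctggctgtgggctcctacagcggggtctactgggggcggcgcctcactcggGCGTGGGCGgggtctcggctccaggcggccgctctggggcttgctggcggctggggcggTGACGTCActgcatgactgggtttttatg

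The windows of Hspa1a and Hspa1b were identical at 247 of 250 bases. Both hold a heat shock element that begins 104 bases before the start and an NF-kB match 133 bases before it. The Nr4a3 window holds 4 half-sites of the cAMP response element. The Dnajb1 window, the more upstream of 2 in the table, holds 1 half-site. The Maff window holds a full cAMP response element 29 bases before the start and an EGR site 88 bases before it. Where a gene had several windows, the one with the most full motif matches was shown, or the more upstream in a tie. The Maff window was picked from 3 by this rule, so the window shares that follow are not a like comparison for it. Over all 32851 promoter windows the heat shock element was found in 6.69%, the full cAMP response element in 1.55%, its half-site in 17.8%, the AP-1 site in 6.75%, the EGR site in 0.536%, the CArG box in 1.47% and the NF-kB site in 7.25%. Of the 68 higher genes, 45 matched the table by symbol. Any of their windows held the heat shock element in 7, the full cAMP response element in 4, the half-site in 21, the AP-1 site in 10, the EGR site in 1, the CArG box in 1 and the NF-kB site in 15. Counted the same way over the 27025 symbols of the table, these shares were 7.73%, 1.77%, 19.8%, 7.82%, 0.622%, 1.62% and 8.23%. Of the 12 lower genes 9 matched, and their windows held the heat shock element in 1, the half-site in 2 and none of the other motifs. These are matches of letters and not measured binding.

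Of 36 tested heat shock proteins and co-chaperones, 8 rose past the adjusted threshold (15 with the replicate block) and none fell, while 24 had p under 0.05 without adjustment. Their median log2 fold change was 0.47, against 0.01 over all tested genes. Hspa1b (ENSMUSG00000090877, chr17:34956436-34959238, GRCm38), which encodes inducible HSP70, stood at 3.28, 11.9 and 3.19 FPKM in the Slit2-non-IR hearts and 891, 763 and 590.1 FPKM in the Slit2-IR hearts. Its mean was 122-fold higher after IR, and the log2 fold change was 6.91 ± 0.38 (adjusted p = 9.29e-06). Hspa1a (ENSMUSG00000091971, chr17:34969190-34972156), the neighboring gene for the same chaperone, stood at 5.101, 10.4 and 4.67 FPKM in the Slit2-non-IR hearts and 744, 486 and 349 FPKM in the Slit2-IR hearts (log2 fold change 6.10 ± 0.32, adjusted p = 9.29e-06). In both genes Slit2-non-IR replicate 2 was the highest of its group and Slit2-IR replicate 3 the lowest of its own, and the groups were far apart. The 2 genes are near-identical copies, so the split of reads between them is uncertain. Their summed level was 7.86 to 22.3 FPKM in the Slit2-non-IR hearts and 939.5 to 1635 FPKM in the Slit2-IR hearts.

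Dnajb1 (ENSMUSG00000005483, chr8:83608193-83612653), the HSP40 partner that delivers clients to HSP70, stood at 10.8, 18.8 and 10.5 FPKM in the Slit2-non-IR hearts and 212, 279.5 and 87.8 FPKM in the Slit2-IR hearts. The change was 14.5-fold in the means, with a log2 fold change of 3.65 ± 0.38 (adjusted p = 0.0041), and Slit2-IR replicate 3 lay well under the other 2 Slit2-IR hearts. Hsp90aa1, the stress-inducible cytosolic HSP90, stood at 29.0, 43.5 and 31.3 FPKM in the Slit2-non-IR hearts and 199, 229.9 and 116 FPKM in the Slit2-IR hearts (log2 fold change 2.32 ± 0.27, adjusted p = 0.00756). Hspb1, the small heat shock protein HSP27, was already high at 354, 327 and 261 FPKM and reached 1705, 1287 and 855 FPKM (1.98 ± 0.30, adjusted p = 0.0236). Taken gene by gene, it was the most abundant of the risen chaperones per kilobase in every Slit2-IR heart. The summed level of Hspa1a and Hspa1b was above that of Hspb1 in Slit2-IR replicate 3 (939.5 FPKM). It was a little under Hspb1 in Slit2-IR replicates 1 and 2 (1635 and 1250 FPKM). Hsph1, the HSP110 that exchanges nucleotide on HSP70, rose by 1.78 ± 0.21, the co-chaperone Dnaja4 by 0.99 ± 0.17 and Hspa5, the HSP70 of the endoplasmic reticulum (BiP), by 0.86 ± 0.14 on the log2 scale (adjusted p = 0.00756, 0.0403 and 0.0257). Hspa5 was very even, at 89.8, 94.3 and 97.9 FPKM before and 175, 174 and 167 FPKM after IR. The constitutive HSP70 gene Hspa8 just missed the threshold (0.90 ± 0.17, adjusted p = 0.0505, or 0.046 with the block).

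**Figure D1:**
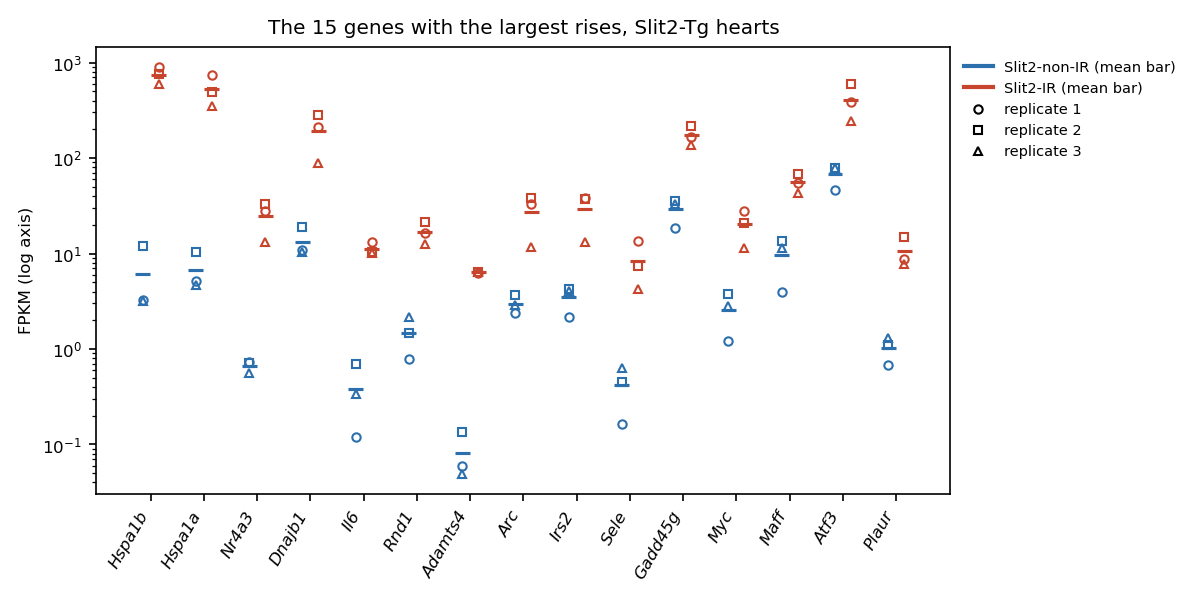
FPKM (log axis) of the 15 genes with the largest log2 rises in Slit2-Tg hearts, for the 3 Slit2-non-IR (blue) and 3 Slit2-IR (red) libraries, with a bar at each group mean. The groups do not overlap in any of the 15, and Hspa1b runs from 3.19 to 11.9 FPKM without IR and from 590.1 to 891 FPKM after it.

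Immediate-early transcription factors gave the highest median of the 23 lists that are not cell type markers, 1.25 over 30 tested members. Of these, 7 rose past the adjusted threshold (12 with the block), none fell and 23 had an unadjusted p under 0.05. Nr4a3 (ENSMUSG00000028341, chr4:48045153-48086447), an orphan nuclear receptor that needs no ligand, stood at 0.733, 0.7097 and 0.554 FPKM in the Slit2-non-IR hearts and 28.2, 33.4 and 13.3 FPKM in the Slit2-IR hearts. Its mean rose 37.5-fold (log2 fold change 3.87 ± 0.35, adjusted p = 0.00143). Its relative Nr4a2 rose by 2.11 ± 0.32 (adjusted p = 0.0236), from 1.35, 3.097 and 3.93 to 17.9, 16.5 and 10.5 FPKM. The third member, Nr4a1, was far more abundant and already at 54.7, 156 and 129 FPKM without IR. It stood at 370.2, 410 and 250.2 FPKM after IR and did not pass the threshold (1.69 ± 0.36, adjusted p = 0.0707, or 0.0318 with the block).

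Atf3 (ENSMUSG00000026628, chr1:191170296-191218039), a stress-induced factor of the ATF/CREB family, stood at 45.9, 78.4 and 78.0 FPKM in the Slit2-non-IR hearts and 390.3, 591 and 242 FPKM in the Slit2-IR hearts (log2 fold change 2.53 ± 0.37, adjusted p = 0.0236). Myc (ENSMUSG00000022346, chr15:61985391-61990374), a driver of growth genes, stood at 1.21, 3.77 and 2.79 FPKM in the Slit2-non-IR hearts and 28.1, 21.1 and 11.3 FPKM in the Slit2-IR hearts (2.54 ± 0.43, adjusted p = 0.0379). Maff (ENSMUSG00000042622, chr15:79347541-79359072), a small Maf protein that pairs with other leucine zipper factors, stood at 3.98, 13.5 and 11.4 FPKM in the Slit2-non-IR hearts and 55.02, 68.3 and 43.2 FPKM in the Slit2-IR hearts (2.53 ± 0.45, adjusted p = 0.0421). In all 3 genes Slit2-non-IR replicate 1 was the lowest heart of its group and Slit2-IR replicate 3 the lowest of its own. The AP-1 subunit Fosl2 rose by 2.09 ± 0.27 (adjusted p = 0.014) and the repressor Bhlhe40 by 1.67 ± 0.21 (adjusted p = 0.00911).

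The classical members Fos, Jun and Egr1 were already high in the hearts perfused without ischemia. Fos stood at 132, 359 and 331 FPKM in the Slit2-non-IR hearts and 438, 689 and 342 FPKM in the Slit2-IR hearts, and the groups met, with Slit2-IR replicate 3 under the highest Slit2-non-IR heart (0.90 ± 0.38, adjusted p = 0.394). Jun stood at 146, 231 and 233 FPKM in the Slit2-non-IR hearts and 511, 583 and 306 FPKM in the Slit2-IR hearts (1.18 ± 0.25, adjusted p = 0.0693, or 0.0369 with the block). Egr1 stood at 66.4, 149 and 141 FPKM in the Slit2-non-IR hearts and 377, 431 and 199.7 FPKM in the Slit2-IR hearts (1.51 ± 0.36, adjusted p = 0.0959). For Jun and Egr1 the groups did not overlap.

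Cytokines and chemokines were represented by 25 tested genes of 29, with 2 risen (11 with the block), none fallen, 16 at an unadjusted p under 0.05 and a median of 0.64. Il6 (ENSMUSG00000025746, chr5:30013114-30019981), a proinflammatory cytokine, stood at 0.119, 0.696 and 0.342 FPKM in the Slit2-non-IR hearts and 13.2, 10.3 and 10.1 FPKM in the Slit2-IR hearts, from 6 to 39 reads in the Slit2-non-IR and 548 to 651 in the Slit2-IR libraries. The mean was 29.1-fold higher (log2 fold change 3.15 ± 0.43, adjusted p = 0.0181). Lif, a cytokine of the same family, rose by 0.81 ± 0.14 from 0.0997, 0.249 and 0.281 to 1.04, 1.03 and 1.28 FPKM (adjusted p = 0.0403). Ptx3, a soluble pattern recognition protein, had a larger but more scattered difference, from 0.198, 0.711 and 0.663 to 23.2, 10.3 and 8.83 FPKM (3.21 ± 0.64, adjusted p = 0.0578, or 0.0499 with the block). The neutrophil attractant Cxcl1 stood at 2.37, 8.72 and 13.3 FPKM in the Slit2-non-IR hearts and 36.1, 44.9 and 28.8 FPKM in the Slit2-IR hearts (2.25 ± 0.57, adjusted p = 0.119, or 0.0322 with the block). The macrophage cytokine gene Tnf stood at 1.18, 2.43 and 2.46 FPKM in the Slit2-non-IR hearts and 8.99, 13.9 and 7.31 FPKM in the Slit2-IR hearts (1.86 ± 0.42, adjusted p = 0.0781, or 0.0192 with the block). For Ptx3, Cxcl1 and Tnf, every Slit2-IR heart lay above every Slit2-non-IR heart. Il1b, which encodes interleukin-1 beta, stood at 0.885, 4.07 and 3.07 FPKM in the Slit2-non-IR hearts and 3.95, 3.33 and 4.68 FPKM in the Slit2-IR hearts, and these groups overlapped (0.55 ± 0.42, adjusted p = 0.706). Il18 was too low to test, at 0.0935, 0.379 and 0.268 FPKM in the Slit2-non-IR hearts and 0, 0.322 and 0.261 FPKM in the Slit2-IR hearts.

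Of 23 NF-kB factors and feedback inhibitors, 3 rose (8 with the block), none fell and 13 had an unadjusted p under 0.05, with a median of 0.51. Tnfaip3 encodes A20, an enzyme that ends NF-kB signaling, and stood at 0.7404, 1.17 and 1.25 FPKM in the Slit2-non-IR hearts and 5.82, 7.08 and 3.99 FPKM in the Slit2-IR hearts (1.67 ± 0.23, adjusted p = 0.0181). Bcl3, an atypical nuclear member of the inhibitor family, rose by 1.55 ± 0.27 and the subunit gene Relb by 0.89 ± 0.16 (adjusted p = 0.0403 and 0.0418). Nfkbia, which encodes the main cytoplasmic inhibitor, stood at 9.37, 26.6 and 28.9 FPKM in the Slit2-non-IR hearts and 38.8, 61.3 and 42.2 FPKM in the Slit2-IR hearts (1.22 ± 0.46, adjusted p = 0.329, or 0.0498 with the block).

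Endothelial adhesion and coagulation genes had a median of 0.82 over 15 tested members, of which 3 rose (4 with the block), none fell and 10 had an unadjusted p under 0.05. Sele (ENSMUSG00000026582, chr1:164048234-164057677), the endothelial selectin that slows leukocytes, stood at 0.166, 0.447 and 0.638 FPKM in the Slit2-non-IR hearts and 13.5, 7.32 and 4.25 FPKM in the Slit2-IR hearts (2.61 ± 0.40, adjusted p = 0.0242). Plaur (ENSMUSG00000046223, chr7:24462484-24475968), the urokinase receptor, stood at 0.681, 1.09 and 1.298 FPKM in the Slit2-non-IR hearts and 8.87, 14.9 and 7.75 FPKM in the Slit2-IR hearts (2.47 ± 0.34, adjusted p = 0.0181). The gene of its ligand, Plau, rose by 1.47 ± 0.26 (adjusted p = 0.0403). Receptor and ligand were both higher in each Slit2-IR heart than in any Slit2-non-IR heart. The adhesion molecule gene Icam1 stood at 2.59, 5.94 and 3.97 FPKM in the Slit2-non-IR hearts and 15.7, 17.7 and 12.7 FPKM in the Slit2-IR hearts (1.70 ± 0.36, adjusted p = 0.0707, or 0.0307 with the block).

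Among 18 MAP kinase phosphatases, Sprouty genes and mRNA decay factors, which damp growth factor signals and shorten early transcripts, 3 rose (4 with the block), none fell and 12 had an unadjusted p under 0.05, with a median of 0.60. The risen members were the phosphatase genes Dusp5 (1.40 ± 0.24, adjusted p = 0.0379), Dusp8 (1.04 ± 0.19, 0.0457) and Dusp4 (0.99 ± 0.15, 0.0236). Dusp1, the most familiar of the family, stood at 151, 261 and 254 FPKM in the Slit2-non-IR hearts and 182, 249.9 and 194 FPKM in the Slit2-IR hearts, with overlapping groups.

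Growth arrest and cell death genes numbered 22 tested, of which 3 rose (5 with the block), none fell and 11 had an unadjusted p under 0.05, 10 of them higher, with a median of 0.23. Gadd45g (ENSMUSG00000021453, chr13:51846678-51848468), induced by growth arrest and DNA damage, stood at 18.5, 35.7 and 32.7 FPKM in the Slit2-non-IR hearts and 167, 218 and 137 FPKM in the Slit2-IR hearts (2.57 ± 0.40, adjusted p = 0.0255). Phlda1 rose by 1.82 ± 0.25 (adjusted p = 0.0181). Pmaip1, which encodes the BH3-only protein NOXA, rose by 0.94 ± 0.16 (adjusted p = 0.0403). The mitophagy receptor gene Bnip3 had the lowest unadjusted p among members with a negative estimate (-0.46 ± 0.11, adjusted p = 0.109).

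Unfolded protein and integrated stress response genes had a median of 0.51 over 22 tested members. Manf, a protein retained in and secreted from the stressed endoplasmic reticulum, was the 1 member that rose (1.01 ± 0.18, adjusted p = 0.0421), from 6.91, 7.32 and 8.34 to 19.4, 12.6 and 17.2 FPKM. With the block 2 rose. None fell and 10 had an unadjusted p under 0.05. Ppp1r15a, the GADD34 subunit that restarts translation, had 1.75 ± 0.44 (adjusted p = 0.117, or 0.0174 with the block).

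Matrix proteases, hyaluronan enzymes and matricellular genes gave 2 rises (5 with the block), no fall and 12 unadjusted p under 0.05, 11 of them higher, among 28 tested, with a median of 0.34. Adamts4 (ENSMUSG00000006403, chr1:171250421-171260637), a protease that cuts aggrecan and versican, stood at 0.0601, 0.135 and 0.0493 FPKM in the Slit2-non-IR hearts and 6.29, 6.36 and 6.44 FPKM in the Slit2-IR hearts, the most even set of Slit2-IR values among the leading genes. It was counted from 6 to 15 reads in the Slit2-non-IR and 614 to 736 in the Slit2-IR libraries, with a 78.0-fold higher mean (log2 fold change 2.77 ± 0.33, adjusted p = 0.00756). Adamts1 rose by 2.06 ± 0.36 (adjusted p = 0.0403). The matricellular gene Thbs1 stood at 2.14, 16.6 and 9.99 FPKM in the Slit2-non-IR hearts and 86.6, 65.7 and 61.4 FPKM in the Slit2-IR hearts, and missed the threshold with a wider spread (3.08 ± 0.60, adjusted p = 0.0539, or 0.0215 with the block).

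Collagens showed small positive differences with no call: 0 of 25 passed the adjusted threshold in limma (0 in limma-voom, 1 with the block, and 11 had an unadjusted p under 0.05, every one higher), and the median was 0.43. Col15a1, a basement membrane collagen, was the 1 gene called with the block, at 9.91, 5.42 and 11.5 FPKM in the Slit2-non-IR hearts and 24.9, 13.5 and 30.7 FPKM in the Slit2-IR hearts (1.26 ± 0.31, adjusted p = 0.109, or 0.0257 with the block). Col6a2 stood at 9.53, 5.86 and 9.07 FPKM in the Slit2-non-IR hearts and 18, 11.7 and 19.02 FPKM in the Slit2-IR hearts (0.91 ± 0.22, adjusted p = 0.109). In both genes the replicate 2 hearts were the lowest of each group.

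Fetal and stretch-responsive cardiac genes had a median of 0.96 over 15 tested members, with 1 rise, no fall and 7 unadjusted p under 0.05. Gdf15, a stress cytokine of the TGF-beta family, stood at 1.197, 1.12 and 1.45 FPKM in the Slit2-non-IR hearts and 8.86, 5.79 and 7.03 FPKM in the Slit2-IR hearts (1.85 ± 0.34, adjusted p = 0.0457). Nppb, which encodes B-type natriuretic peptide, stood at 234, 92.7 and 332 FPKM in the Slit2-non-IR hearts and 704, 280.2 and 963 FPKM in the Slit2-IR hearts, and the groups overlapped (1.57 ± 0.55, adjusted p = 0.282, or 0.221 with the block). Set side by side by replicate number, the Slit2-IR heart was the higher each time, but these are different hearts that no label pairs. Without Slit2-IR replicate 1, which held the most atrial transcripts, the median of this list was 0.45. Myl4, an atrial light chain, stood at 0.187, 1.02 and 4.02 FPKM in the Slit2-non-IR hearts and 134, 0.224 and 2.81 FPKM in the Slit2-IR hearts.

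The interferon-gamma list had 1 rise (4 with the block), no fall and 6 unadjusted p under 0.05, 5 of them higher, among 32 tested genes, with a median of 0.17. Irf1, the factor that carries the interferon signal to its targets, rose by 1.45 ± 0.27 (adjusted p = 0.0491). Socs3, a feedback inhibitor of STAT3, stood at 7.77, 32.03 and 29.8 FPKM in the Slit2-non-IR hearts and 101.1, 115 and 78.5 FPKM in the Slit2-IR hearts (2.24 ± 0.49, adjusted p = 0.0733, or 0.0205 with the block).

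**Figure D2:**
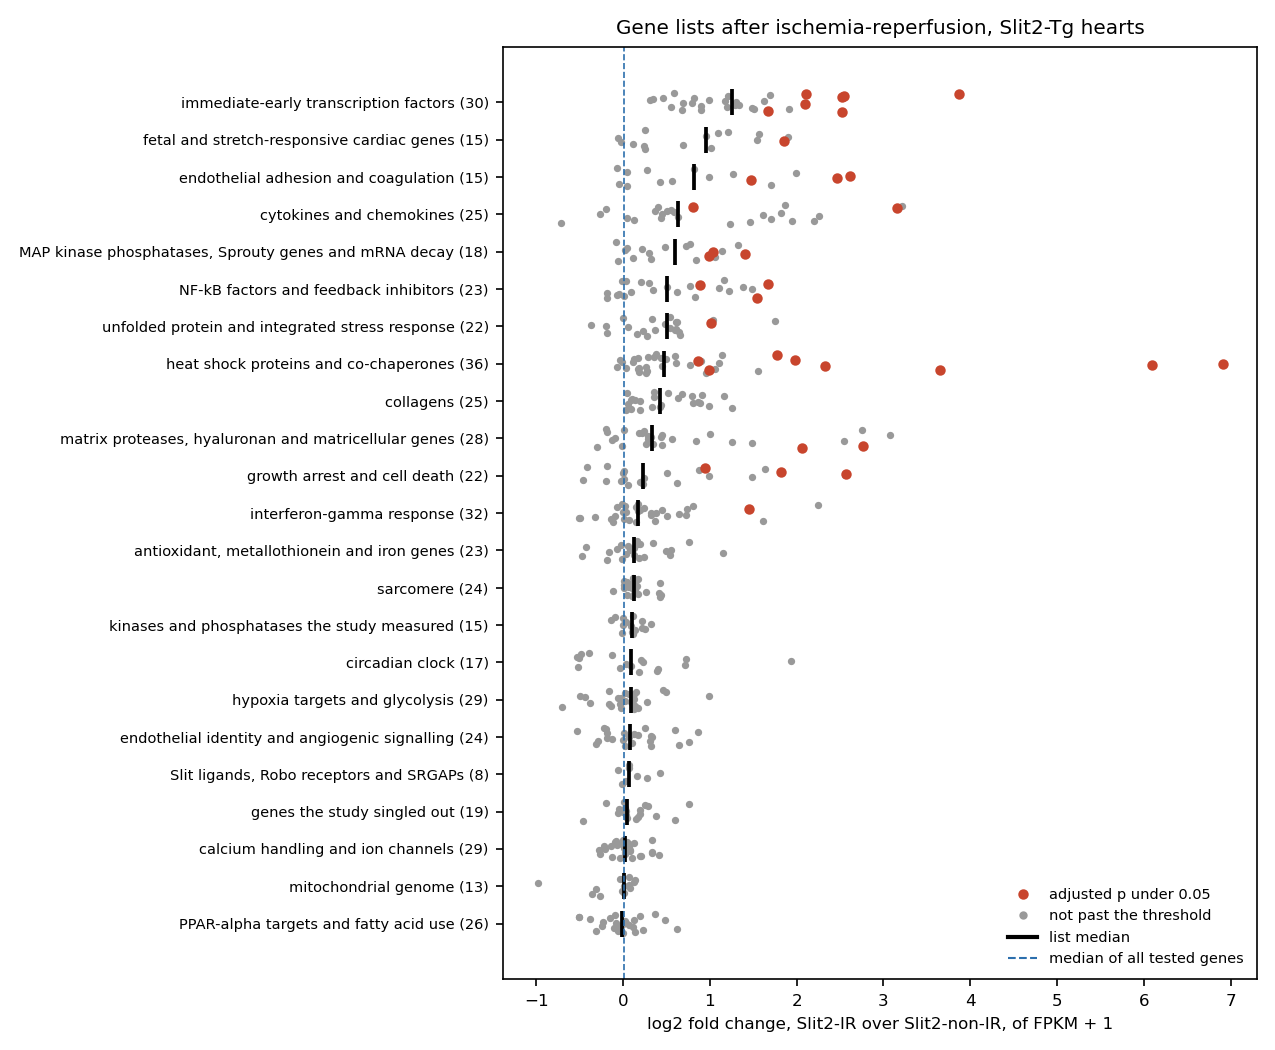
Log2 fold change of FPKM + 1, Slit2-IR over Slit2-non-IR, for each tested gene of 23 lists (number tested in parentheses), with genes past the adjusted threshold in red, a black bar at each list's median and a dashed line at the median of all tested genes. The list medians run from -0.01 for PPAR-alpha targets and fatty acid use to 1.25 for immediate-early transcription factors.

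The remaining lists held no gene past the adjusted threshold in limma with or without the block, nor in limma-voom on recovered reads. Their counts below are at an unadjusted p under 0.05. Over all tested genes 6.15% were higher and 5.07% lower at this threshold, so counts of 1 or 2 genes are not read as a trait of a list. Of 29 calcium handling and ion channel genes, 0 had an unadjusted p under 0.05 (median 0.02), and Atp2a2, the sarcoplasmic reticulum calcium pump, stood at 2376, 1974 and 1865 FPKM in the Slit2-non-IR hearts and 2476, 2201 and 2002 FPKM in the Slit2-IR hearts. Of 24 sarcomere genes 1 was higher at an unadjusted p under 0.05, Csrp3 (0.43 ± 0.17), and the median was 0.12. Myh6, the adult cardiac myosin heavy chain, stood at 4087, 3072 and 3732 FPKM in the Slit2-non-IR hearts and 4074, 3481 and 2602 FPKM in the Slit2-IR hearts. Slit2-IR values lay above all Slit2-non-IR values in 1 of the 24 sarcomere genes and 3 of the 29 calcium handling genes, and below in none. Over all tested genes these shares were 8.65% above and 8.3% below, so overlapping groups are not particular to these lists.

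Of 26 PPAR-alpha targets and fatty acid genes 2 (7.69%) were lower at an unadjusted p under 0.05, near the 5.07% of all tested genes. They were the metabolic coactivator Ppargc1a (-0.51 ± 0.19, adjusted p = 0.308) and lipoprotein lipase Lpl (-0.23 ± 0.09, 0.33), and the list median was -0.01. Of 29 hypoxia and glycolysis genes 2 were higher, Pfkfb3 (0.99 ± 0.28, adjusted p = 0.165) and the glucose transporter Slc2a1 (0.49 ± 0.18, 0.309), with a median of 0.09. Gapdh was listed at no more than 4.88 FPKM in any Slit2 library, low for a gene used by every cell. It has many near-identical pseudogenes, so its level is uncertain. Of 23 antioxidant, metallothionein and iron genes 2 were lower, Gclm (-0.47 ± 0.15, adjusted p = 0.231) and Slc40a1 (-0.43 ± 0.19, 0.425), with a median of 0.13. Hmox1, heme oxygenase 1, stood at 3.96, 36.97 and 7.51 FPKM in the Slit2-non-IR hearts and 30.02, 35.4 and 14.5 FPKM in the Slit2-IR hearts, with Slit2-non-IR replicate 2 above all 3 Slit2-IR hearts.

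Of 17 circadian clock genes 2 were higher and 1 lower at an unadjusted p under 0.05, with a median of 0.09. Nr1d1 stood at 7.71, 2.99 and 12.1 FPKM in the Slit2-non-IR hearts and 33.8, 30.8 and 22.2 FPKM in the Slit2-IR hearts (1.94 ± 0.71, adjusted p = 0.307), Per1 had 0.73 ± 0.30 and Cry1 -0.52 ± 0.22. Of 24 endothelial identity genes 4 were higher, led by the factor Sox17 (0.86 ± 0.23, adjusted p = 0.131) and the Notch ligand Dll4 (0.76 ± 0.26, 0.259), with a median of 0.08. Of 13 protein-coding mitochondrial genes 1 was lower, mt-Nd3 (-0.98 ± 0.45, adjusted p = 0.441), with a median of 0.01. Of 15 protein kinase and phosphatase genes 1 was higher, the protein kinase A subunit Prkar1a (0.32 ± 0.14, adjusted p = 0.394), with a median of 0.10. A further list held 19 genes picked earlier from other comparisons of these libraries, so it is no independent evidence. In it 1 was higher and 1, Acot11, was lower (-0.46 ± 0.17), with a median of 0.05.

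Of 10 Slit, Robo and SRGAP genes 8 were tested and 0 had an unadjusted p under 0.05, with a median of 0.07. The endothelial receptor Robo4 stood at 7.55, 8.32 and 10.8 FPKM in the Slit2-non-IR hearts and 8.297, 11.7 and 13.1 FPKM in the Slit2-IR hearts (0.28 ± 0.24, adjusted p = 0.762). Robo1 had -0.02 ± 0.08 and Robo2 0.03 ± 0.04, both under 0.6 FPKM in every Slit2 heart. Slamf7, a receptor of immune cells, stood at 0.0632, 0.199 and 0.224 FPKM in the Slit2-non-IR hearts and 0.194, 0.581 and 0.245 FPKM in the Slit2-IR hearts (0.20 ± 0.19, adjusted p = 0.784). Rasgrp1, a Ras activator of lymphocytes, stayed under 0.1 FPKM in every Slit2 heart (0.04 ± 0.05). The groups overlapped for each of these 5 genes.

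Further genes with large rises lay outside the lists. Rnd1 (ENSMUSG00000054855, chr15:98663421-98677461), a small GTPase that loosens actin, stood at 0.7798, 1.46 and 2.18 FPKM in the Slit2-non-IR hearts and 16.6, 21.6 and 12.6 FPKM in the Slit2-IR hearts (2.87 ± 0.33, adjusted p = 0.00756). Arc (ENSMUSG00000022602, chr15:74669083-74672570), an immediate-early gene best known from neurons, stood at 2.397, 3.65 and 2.92 FPKM in the Slit2-non-IR hearts and 32.8, 37.9 and 11.8 FPKM in the Slit2-IR hearts (2.70 ± 0.40, adjusted p = 0.0236). Irs2 (ENSMUSG00000038894, chr8:10984681-11008458), the insulin receptor substrate, stood at 2.15, 4.24 and 4.005 FPKM in the Slit2-non-IR hearts and 38.5, 36.9 and 13.2 FPKM in the Slit2-IR hearts (2.67 ± 0.42, adjusted p = 0.0257). In Arc and Irs2, Slit2-IR replicate 3 lay well under the other Slit2-IR hearts. The 68 higher genes lay on 20 chromosomes, and 66 of them were protein-coding. Their median level without IR was 2.65 FPKM, against 2.97 FPKM for all tested genes, and the fold of the means ran from 1.46 to 122 with a median of 4.0. The means at least doubled in 64 genes and rose at least 10-fold in 9. Of the 80 called genes, 21 overlap another gene with reads, and since the counting is not stated to use strand, reads of such pairs may be shared.

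The mean levels of the 12 lower genes after IR were 15.01% to 68.1% of those without IR. Gm37352 (ENSMUSG00000103593, chr8:84200869-84203049), a transcript of unassigned type, had the largest fall on the log2(FPKM + 1) scale, from 3.87, 4.57 and 3.35 to 0.858, 1.33 and 0.658 FPKM (-1.35 ± 0.21, adjusted p = 0.0255). The mitochondrial tyrosine tRNA mt-Ty (ENSMUSG00000064350, chrMT:5260-5326) stood at 685, 675 and 639 FPKM in the Slit2-non-IR hearts and 403, 472 and 348 FPKM in the Slit2-IR hearts (-0.72 ± 0.13, adjusted p = 0.0478). It is 67 bases long, so its FPKM is scaled up from a very short gene. Alkbh4 (ENSMUSG00000039754, chr5:136136146-136141615), a dioxygenase that removes methyl groups, stood at 2.03, 1.74 and 1.85 FPKM in the Slit2-non-IR hearts and 0.861, 0.687 and 0.996 FPKM in the Slit2-IR hearts (-0.64 ± 0.10, adjusted p = 0.0242). Fbxo9 (ENSMUSG00000001366, chr9:78081499-78109065), a substrate receptor of an SCF ubiquitin ligase, stood at 10.8, 11.2 and 10.6 FPKM in the Slit2-non-IR hearts and 6.83, 7.44 and 7.87 FPKM in the Slit2-IR hearts (-0.50 ± 0.09, adjusted p = 0.0403). Each of these 4 genes was lower in all 3 Slit2-IR hearts than in any Slit2-non-IR heart, and the Slit2-non-IR values of Fbxo9 were within 1 FPKM of each other.

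The 6 zinc finger genes among the falls were all low. Zfp606 (ENSMUSG00000030386, chr7:12478293-12496235) stood at 1.53, 1.598 and 1.52 FPKM in the Slit2-non-IR hearts and 0.635, 0.811 and 0.859 FPKM in the Slit2-IR hearts (-0.53 ± 0.08, adjusted p = 0.0296). Zfp128 (ENSMUSG00000060397, chr7:12881177-12893422) stood at 0.979, 1.11 and 1.03 FPKM in the Slit2-non-IR hearts and 0.338, 0.295 and 0.516 FPKM in the Slit2-IR hearts (-0.57 ± 0.09, adjusted p = 0.0336). Zfp60 (ENSMUSG00000037640, chr7:27731389-27753702) stood at 1.005, 0.977 and 1.03 FPKM in the Slit2-non-IR hearts and 0.476, 0.465 and 0.594 FPKM in the Slit2-IR hearts (-0.41 ± 0.06, adjusted p = 0.0257). The other three, Zfp113 (ENSMUSG00000037007, chr5:138139702-138155744), Zfp563 (ENSMUSG00000067424, chr17:33089310-33106203) and Zfp87 (ENSMUSG00000097333, chr13:67515781-67526177), had log2 fold changes of -0.48 ± 0.08, -0.46 ± 0.08 and -0.50 ± 0.09 (adjusted p = 0.0403, 0.0403 and 0.0491). Such C2H2 zinc finger proteins bind DNA, many of them as repressors. Zfp87 was counted from 47 to 71 reads in the Slit2-non-IR and 15 to 28 in the Slit2-IR libraries. The last 2 lower genes, Gm12258 (ENSMUSG00000072915, chr11:58847158-58861956) and Gm5141 (ENSMUSG00000091183, chr13:62772200-62785808), stood under 0.5 FPKM in every Slit2 heart (-0.36 ± 0.07 and -0.25 ± 0.04, adjusted p = 0.0433 and 0.0335), the second from no more than 5 reads in any Slit2-IR library.

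**Figure D3:**
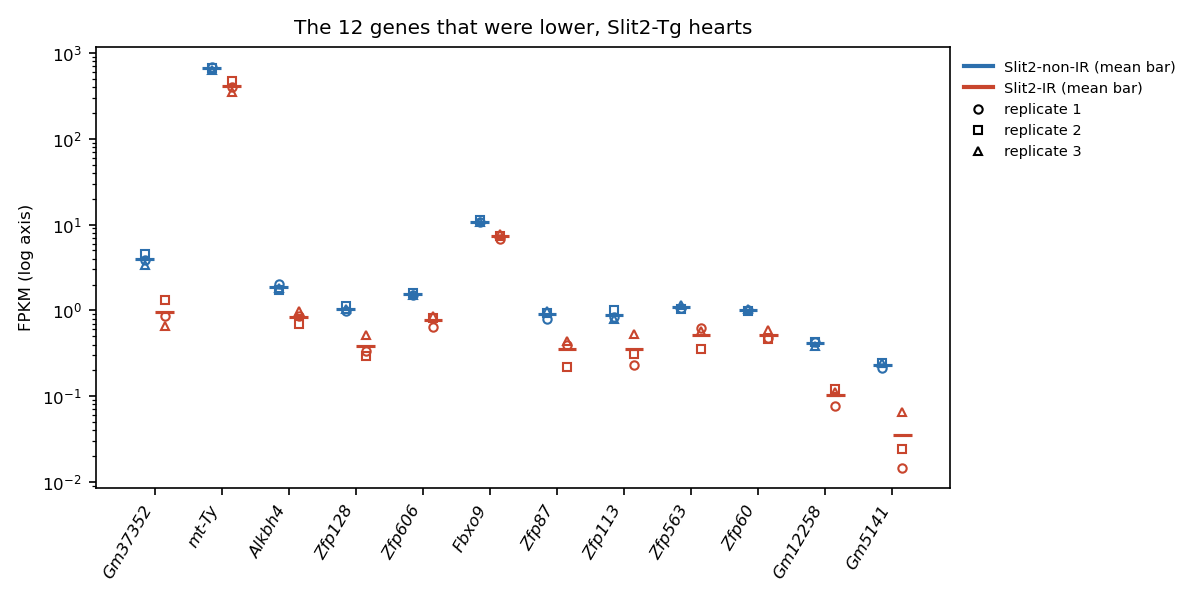
FPKM (log axis) of the 12 genes that were lower in Slit2-IR than in Slit2-non-IR hearts, with 1 symbol per library and a bar at each group mean. The groups do not overlap in any of the 12, and most lie near or under 1 FPKM, apart from mt-Ty, Fbxo9, Gm37352 and Alkbh4.

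C57BL/6J hearts, tested the same way, moved in the same direction for nearly all of these genes. In C57-IR against C57-non-IR hearts 62 genes (0.407%) were higher at an adjusted p under 0.05. Of these, 42 were among the 68 of the Slit2-Tg hearts, 61.8% of the Slit2 list and 67.7% of the C57 list. The C57 estimate had the same sign in 67 of the 68 higher genes and in all 12 lower genes, although none of the 12 was called in C57BL/6J hearts. Over all tested genes the signs were the same in 9918 of 15240. Over all 15240 tested genes the 2 log2 fold changes had a Pearson r of 0.744, a description across genes, which are not independent replicates. Hspa1b gave 6.91 ± 0.38 in Slit2-Tg and 6.90 ± 0.38 in C57BL/6J hearts, and Nr4a3 gave 3.87 ± 0.35 and 3.58 ± 0.35.

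The difference of the IR response between the genotypes, tested as an interaction over all 12 libraries, passed the adjusted threshold in 0 genes, the smallest adjusted p being 0.9998, and 284 genes (1.86%) had an unadjusted p under 0.05. With limma-voom on reads recovered from the FPKM the counts were 0 and 252. These p-values do not show that the responses were alike. Trp53, which encodes p53, was the 1 higher gene with opposite signs, at 2.19, 1.82 and 2.48 FPKM in the Slit2-non-IR hearts and 3.63, 3.33 and 4.24 FPKM in the Slit2-IR hearts and 2.69 ± 0.314 FPKM in C57-non-IR and 2.601 ± 0.143 FPKM in C57-IR hearts (interaction 0.61 ± 0.16, unadjusted p = 0.0023). It was named after its values were seen.

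The smallest unadjusted interaction p belonged to Gm18194 (interaction -0.78 ± 0.14, unadjusted p = 0.000164), at 0.994, 0.957 and 0.838 FPKM in the Slit2-non-IR hearts and 0.816, 0.615 and 0.5996 FPKM in the Slit2-IR hearts and 0.272 ± 0.157 FPKM in C57-non-IR and 0.895 ± 0.172 FPKM in C57-IR hearts. An unannotated transcript on chromosome 3 followed (-0.74 ± 0.16, unadjusted p = 0.000695). Slc7a1, a transporter of cationic amino acids, stood at 2.57, 2.61 and 2.15 FPKM in the Slit2-non-IR hearts and 1.25, 1.15 and 1.31 FPKM in the Slit2-IR hearts and at 4.2 ± 0.474 FPKM in C57-non-IR and 5.01 ± 1.003 FPKM in C57-IR hearts (interaction -0.82 ± 0.18, unadjusted p = 0.00081). Its values were lower after IR in Slit2-Tg hearts without overlap (adjusted p = 0.0617, or 0.0316 with the block). The others of the 6 smallest were Tnfsfm13 (-0.41 ± 0.09, unadjusted p = 0.000809), Mansc4 (0.65 ± 0.15, unadjusted p = 0.00138) and Hist1h2bg (-0.75 ± 0.18, unadjusted p = 0.00185), each counted from no more than 15 reads in any Slit2-IR library. All 6 have unadjusted p-values from limma and failed the correction.

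**Figure D4:**
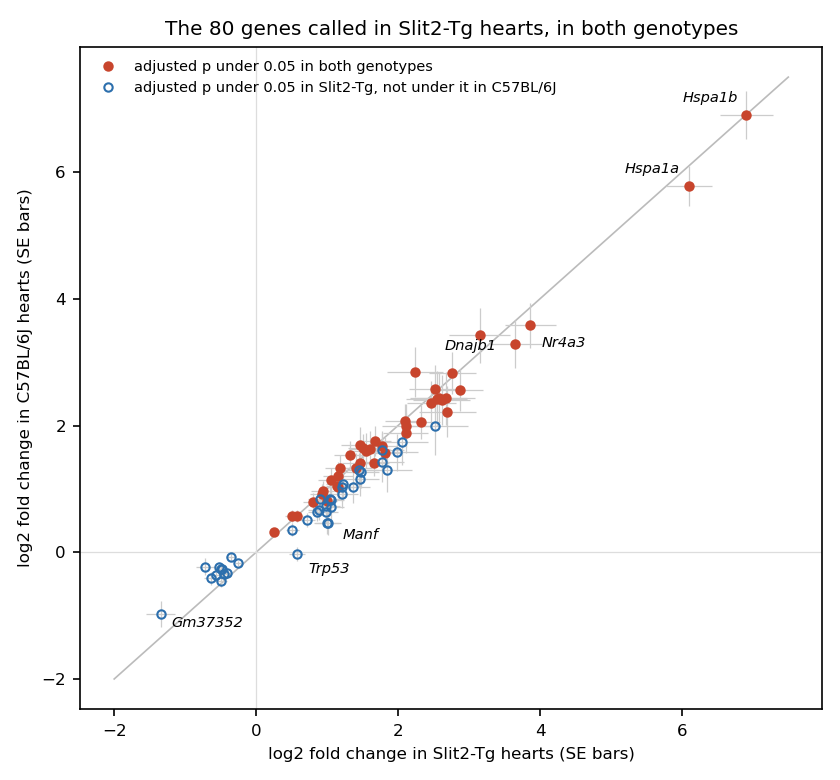
Log2 fold change after IR of the 80 genes called in Slit2-Tg hearts, in Slit2-Tg hearts (x axis) and C57BL/6J hearts (y axis), with standard errors and a line of equal change. Filled points (42 genes) passed the adjusted threshold in both genotypes, and the points run from Gm37352 at -1.35 and -0.98 to Hspa1b at 6.91 and 6.90. The genes were chosen by their Slit2-Tg values. The Slit2-Tg estimate was the larger in size in 52 of the 68 higher genes and in all 12 lower genes.

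The makeup of the tissue was read from 14 lists of cell type markers, as summed FPKM per library. Ventricular cardiomyocyte markers stood at 14460 to 18750 FPKM in the Slit2-non-IR and 17350 to 20570 FPKM in the Slit2-IR hearts, and were the highest of the lists in every library. Neutrophil and lymphocyte markers stayed under 0.8 FPKM in sum in every Slit2 library, and 2 of the 8 neutrophil markers were listed at 0 in all 6. Atrial markers, 7 of 8 of which were tested, stood at 53.6, 64.5 and 124.5 FPKM without IR and at 1847, 119 and 79.2 FPKM after it. Slit2-IR replicate 1 thus held far more atrial transcripts than any other Slit2 library. Its part in the results was not tested by itself, but without this library Hspa1b changed by 6.77, Nr4a3 by 3.73 and Il6 by 3.04 on the log2 scale, of which Il6 was no longer called (adjusted p = 0.0949). In bulk tissue, fewer cells of a type and less RNA per cell cannot be told apart.

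Endothelial markers ran from 260.2 to 391 FPKM without IR and from 275 to 454 FPKM after it. Macrophage markers ran from 284 to 397 and from 221 to 340.4 FPKM, fibroblast markers from 217 to 290.2 and from 275.5 to 295 FPKM, and smooth muscle and pericyte markers from 254 to 277 and from 189 to 359 FPKM. Slit2-non-IR replicate 2 held the most erythrocyte transcripts (49.0 FPKM, with the other 5 libraries at 1.86 to 13.2) and the most lung transcripts (12.7 FPKM, with the others under 0.5). Skeletal muscle markers ran from 119 to 302 and from 67.5 to 471 FPKM, adipose from 1.41 to 8.01 and from 0.772 to 10.2, mesothelial from 1.002 to 5.21 and from 3.30 to 8.13, and Schwann cell from 4.94 to 6.55 and from 4.55 to 8.95 FPKM. In a two-sided exact permutation test of Slit2-IR against Slit2-non-IR hearts, the smallest p over the 14 sums was 0.2 (0.778 after adjustment over the 14), and 3 against 3 cannot go below 0.1.

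**Figure D5:**
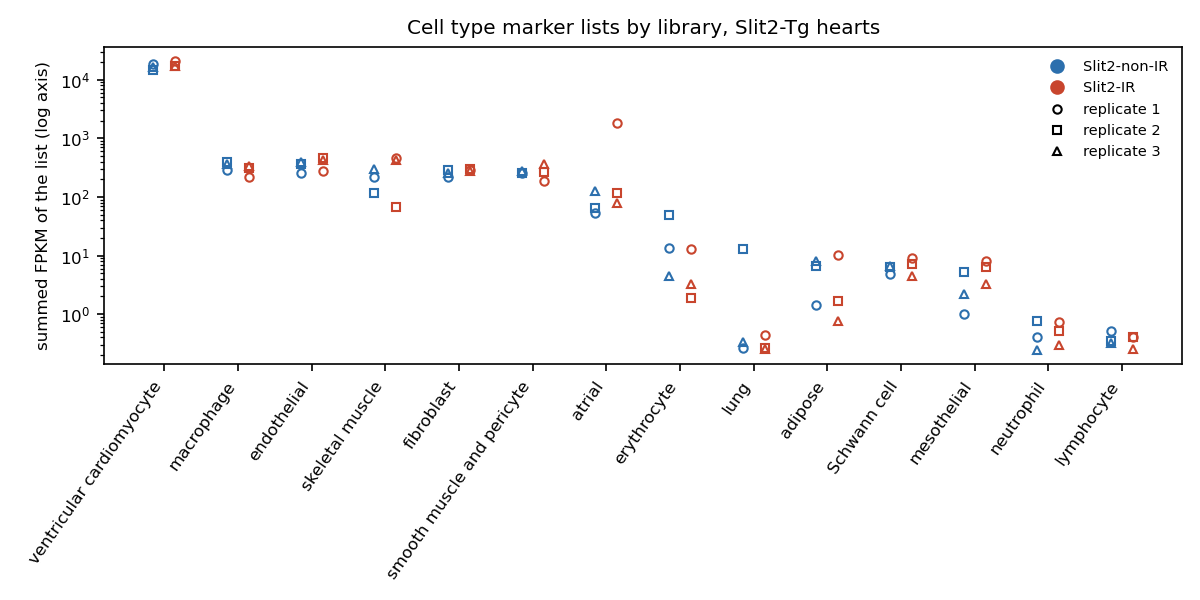
Summed FPKM (log axis) of 14 cell type marker lists in each Slit2-non-IR (blue) and Slit2-IR (red) library, with 1 symbol per replicate number. Slit2-IR replicate 1 stands apart in the atrial list at 1847 FPKM, and Slit2-non-IR replicate 2 in the lung list at 12.7 FPKM.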

How the data were processed

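RNA from mouse hearts was sequenced as paired-end reads from NEBNext Ultra libraries, 3 per group. The submitters' processing notes name HISAT2 and the mm10 build, whose GRCm38 coordinates the files carry. The counting tool, its use of strand and the annotation release are not given in the sources used here. The deposited tables hold 1 FPKM value per gene and library, with no pooling. Each FPKM times its gene length was a whole multiple of 1 step per library (100% of values within 0.01 read), and the steps followed median-of-ratios size factors, so the authors scaled by such factors and read numbers could be recovered. They cover counting error only.

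The 15240 of 52858 genes that reached 10 reads of a median-depth library in 3 or more libraries, with 15 or more reads over all, were tested. Log2(FPKM + 1) was fitted with limma 3.58.1 in R 4.3.3, with 4 group means over all 12 libraries, a trended prior variance and contrasts for each genotype and their difference. Every adjusted p is a Benjamini-Hochberg value over all tested genes. On simulated data for Slit2-IR against Slit2-non-IR with 200 of 15240 genes changed 4-fold, 198 were recovered with 5 false calls. The changed genes were drawn only from genes with many reads, and each gene's spread was a value smoothed over genes of similar level. Variation shared by same-numbered libraries and differences in tissue makeup were not simulated, so this recovery does not carry over to the real libraries. Marker sums were compared by exact permutation. Deviations from the group means of same-numbered Slit2 libraries correlated at 0.143 to 0.294 in all 3 pairs, against -0.279 to 0.0333 for other pairs. Deviations within a group cancel out, so high same-number correlations push the other pairs down, and this contrast is partly built in. The replicate number was read as pairing the Slit2 libraries for an alternative fit, although the labels name no shared day or litter. The fit with that number as a block is given where it changes a call. Unless it is said to hold the 6 Slit2 libraries alone, that block spans all 12 libraries. In the C57BL/6J libraries the same-numbered pairs gave 0.0833 to 0.295, which overlapped the other pairs at -0.243 to 0.206. The block over all 12 libraries thus also ties C57BL/6J libraries by a number that these correlations do not single out. Values with the block are an alternative, and no second line of evidence for a gene that missed the threshold.

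Named were the 15 largest rises and the lower genes among adjusted calls with groups that do not overlap, members of the lists, Slit, Robo and other genes that the study measured, and the 6 smallest interaction p-values. The comparison, gene lists and tests were chosen with earlier results of these data known. Alternatives were another pseudocount, 2 other filters, the Slit2 libraries alone, the block, upper-quartile scaling, limma-voom on recovered reads, a robust prior and leaving out each library. Leaving out both Slit2 libraries numbered 1, the zinc finger name group and the half-site motif were added after the data were seen. Values of 1 further gene that met the rule are not reported here.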

Additional observations from a re-analysis of the deposited data

How the results depend on the processing

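The main counts of 68 genes higher and 12 lower became 13 and 6 without a filter on low values (28242 genes tested), 85 and 23 with at least 10 reads in every library, 55 and 5 in the 6 Slit2 libraries alone, 69 and 25 with upper-quartile scaling and 102 and 19 with limma-voom. With the replicate block they were 163 and 39, and with the replicate block in the 6 Slit2 libraries alone 43 and 2. Leaving out both Slit2 libraries numbered 1, an alternative added after seeing the data, gave 3 and 0, with 2 of the 80 genes still called. Leaving out single libraries gave 4 to 79 higher and 0 to 12 lower. At an unadjusted p under 0.05, 937 higher and 772 lower became 721 to 972 and 487 to 780 when single libraries were left out, 706 and 1177 with upper-quartile scaling, and 598 and 529 without both libraries numbered 1. The interaction called 0 genes except without a filter (4), without Slit2-IR replicate 3 or Slit2-non-IR replicate 1 (1 each) and without both libraries numbered 1 (1). Its 284 unadjusted calls became 674 without a filter and 175 to 448 when single libraries were left out. No alternative reversed the direction of any of the 80 genes. The block over all 12 libraries kept the side of the threshold for 79 of them, the exception being Creb5, and the block in the 6 Slit2 libraries alone for 23. The cause of these shifts was not tested. Some of these fits also differed from the main one in the number of libraries or of genes tested. Genes under 1 FPKM rest on few reads, and their changes are understated on this scale.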

Other observations

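Genes named Zfp with a number had mostly negative estimates in Slit2-Tg hearts. This name group was formed after the falls had been seen, so it is a description with no test. Of 416 such genes 349 were tested, of which 6 passed the adjusted threshold, all lower, and 115 were lower and 6 higher at an unadjusted p under 0.05, against 5.07% lower and 6.15% higher over all genes. Estimates were negative in 80.5% of them, against 48.4% of all tested genes. Their median was -0.15 on the log2 scale, against 0.01. The median was -0.14 without Slit2-IR replicate 1, -0.18 with upper-quartile scaling and -0.09 in C57BL/6J hearts. With the replicate block 11 were called lower and 1 higher. Beyond the 6 called genes, Zfp809, which silences retroviral elements, stood at 4.62, 5.99 and 6.18 FPKM in the Slit2-non-IR hearts and 2.91, 3.31 and 3.26 FPKM in the Slit2-IR hearts (-0.66 ± 0.13, adjusted p = 0.0575 by limma). Zfp12 stood at 1.98, 2.21 and 1.93 FPKM in the Slit2-non-IR hearts and 0.855, 1.15 and 1.31 FPKM in the Slit2-IR hearts (-0.54 ± 0.11, adjusted p = 0.0617, or 0.046 with the block). In both genes the groups did not overlap, and the C57BL/6J estimates were -0.63 ± 0.13 and -0.52 ± 0.11.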
